A study of Mus musculus with 405 samples.

Results

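The genes described here belong to the integrated stress response that runs through the transcription factor ATF4. They were Atf4 itself, the transcription factors Atf3, Ddit3 and Atf5, the regulators Trib3, Sesn2 and Chac1, and the amino acid enzymes Asns, Psat1 and Phgdh. Members were chosen by gene symbol, but with earlier results of these data known. All 10 were found among the 13304 genes of the screen table and among the 23893 genes of the count table. Primary cortical cultures were prepared from hybrid embryos of C57BL/6J dams and CAST/EiJ sires at embryonic day 15, and every group shared this background and a medium change with inhibitors of cell division. On day in vitro 7 each culture received 1 chemical at a non-cytotoxic dose or vehicle (dimethylsulphoxide), and polyadenylated RNA was sequenced after 24 h. The screen held 49 vehicle libraries and 344 libraries from 297 chemicals, of which 282 were represented by 1 library. Topotecan at 0.3 μM, used below as a reference, had 32 libraries.

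Comparison of mitochondrial inhibitors with the other chemicals addressed whether the ATF4 genes were higher with inhibitors of respiratory complex I or III. Respiration itself was not measured in these libraries, and the other chemicals included 7 inhibitors of other mitochondrial targets. The 12 inhibitors were set by their known target and not by expression. Complex I inhibitors were rotenone and tebufenpyrad at 0.01 μM, and fenpyroximate and pyridaben at 0.1 μM. Complex III inhibitors were azoxystrobin and pyraclostrobin at 0.1 μM, fluoxastrobin at 1 μM, and famoxadone, fenamidone, trifloxystrobin, cyazofamid and bifenazate at 10 μM. Of these, 9 are named as such inhibitors by the study, and tebufenpyrad, cyazofamid and bifenazate were added from their known mode of action. By the study, azoxystrobin and fluoxastrobin did not produce superoxide at the doses used for sequencing. Rotenone, azoxystrobin, famoxadone and fenamidone had 2 libraries each and the other 8 had 1. A second table held raw counts of 4 libraries with 0.1 μM pyraclostrobin and 4 with vehicle. Pyraclostrobin replicate 1 of that table is, by its label, the library that stood for pyraclostrobin in the screen, so the 2 data sets are not independent.

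In the integrated stress response, kinases that sense distinct stresses phosphorylate the translation initiation factor eIF2α. General translation falls while the Atf4 mRNA, whose upstream open reading frames otherwise hold translation back, is translated more, and ATF4 protein then activates genes for amino acid synthesis, amino acid import and further transcription factors. Mitochondrial dysfunction can reach this pathway through the protease OMA1, the protein DELE1 and the kinase HRI (Eif2ak1). ATF4 acts mainly as a protein, so the mRNA of its targets is commonly read as its output, and Atf4 mRNA itself need not follow.

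ATF4 binds DNA with C/EBP proteins at composite elements whose core is TGATGNAA, read as TTNCATCA on the other strand. Promoter windows of RefSeq (build GRCm38.p6, 250 bases before to 50 bases after a start site) were available for all 10 genes. The core was present on either strand in at least 1 window of 4 of the 10 genes, against 4.51% of the 27025 genes with a window and 3.97% of the 32851 windows. The cyclic AMP response element TGACGTCA was in no window of the 10 genes and in a window of 2.03% of all genes. The 2 motifs cannot occupy the same 8 bases. The 4 matches are shown because these genes are compared with each other throughout, with the core in capitals and each sequence on the strand of its gene. In Atf3 (chr1:191183334-191183583, minus strand) the match lay 110 bases before the start, in Chac1 (chr2:119350992-119351241, plus strand) 193 bases before, in Asns (chr6:7693210-7693459, minus strand) 23 bases before and in Trib3 (chr2:152344028-152344057, minus strand) 14 bases after the start.
Atf3: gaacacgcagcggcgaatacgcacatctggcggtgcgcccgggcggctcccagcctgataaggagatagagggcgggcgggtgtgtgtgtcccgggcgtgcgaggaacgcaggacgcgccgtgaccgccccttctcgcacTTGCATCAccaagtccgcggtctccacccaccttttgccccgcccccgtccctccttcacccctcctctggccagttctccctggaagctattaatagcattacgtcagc
Chac1: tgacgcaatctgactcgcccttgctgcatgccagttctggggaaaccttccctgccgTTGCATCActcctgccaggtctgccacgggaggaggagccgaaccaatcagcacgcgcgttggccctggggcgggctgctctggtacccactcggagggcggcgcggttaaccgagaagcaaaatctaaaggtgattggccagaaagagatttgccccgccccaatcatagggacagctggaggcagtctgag
Asns: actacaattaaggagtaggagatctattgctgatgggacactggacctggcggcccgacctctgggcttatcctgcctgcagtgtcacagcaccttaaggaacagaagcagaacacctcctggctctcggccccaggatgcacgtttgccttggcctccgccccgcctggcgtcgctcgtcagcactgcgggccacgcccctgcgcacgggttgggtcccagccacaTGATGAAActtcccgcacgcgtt
Trib3: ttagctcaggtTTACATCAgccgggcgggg
A match of these letters is a description of the window and not of binding, and a window without them leaves other positions unexamined.

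In mm9, the build to which the reads were aligned, the 10 genes lie on 9 chromosomes: Atf4 at chr15:80085614-80087970, Atf3 at chr1:192994175-193007219, Ddit3 at chr10:126727830-126733344, Atf5 at chr7:52067627-52072028, Trib3 at chr2:152163158-152169768, Sesn2 at chr4:132047947-132066416, Chac1 at chr2:119176965-119180117, Asns at chr6:7625169-7643254, Psat1 at chr19:15979168-16021827 and Phgdh at chr3:98117093-98143913. Counts were taken over their exons. The Phgdh transcript had near-identical copies at 9 other places of the genome that together covered 96.6% of it, so that its reads could have been split or discarded, and its counts are uncertain. The other 9 transcripts had no such copy over at least 200 bases at an identity of 95% or more.

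The 8 libraries of the count table held 2409623 to 2550437 counts with pyraclostrobin and 2778615 to 7833440 with vehicle, so that 1 CPM, the unit of counts scaled to library size used below, was 2.41 to 7.83 counts. Replicate 1 stood apart in both groups. Its chi-square per degree of freedom against the other replicates was 7.28 to 9.89 with pyraclostrobin and 17.4 to 24.2 with vehicle, compared with 1.78 to 2.85 between all other replicates of a group. All 7 neuronal markers (Tubb3, Rbfox3, Snap25, Syt1, Map2, Slc17a7 and Gad1) were detected, so the label of cortical neurons held, but markers of other cells were detected as well. Summed over their lists, neuronal markers were 2677 to 3557 CPM with pyraclostrobin and 6539 to 6970 with vehicle, 6 fibroblast and mural cell markers 1199 to 1649 and 88.1 to 194, 6 astrocyte markers 834 to 3134 and 318 to 957, 6 microglial markers 57.7 to 88.3 and 14.6 to 21.8, 6 markers of the oligodendrocyte lineage 187 to 302 and 90.7 to 191, and 3 markers of dividing cells 74.4 to 144 and 19.4 to 37.1. Sox10 was at 0 in all pyraclostrobin libraries. The highest astrocyte sums of both groups, 3134 and 957 CPM, were those of replicate 1. In such bulk RNA fewer cells of a type and less RNA per cell cannot be told apart, and the part of cell composition in the values below was not tested. The study counted stained cells after fenamidone (10 μM, 24 h) and found no significant change in neurons, astrocytes or microglia. It gives no such counts for pyraclostrobin, and other cell types were not counted.

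In vehicle cultures, Atf4 was the most abundant of the 10 transcripts. The place of Phgdh in this order is not read, because of its copies. Per kilobase of exon, the vehicle level was 154 ± 22.8 CPM for Atf4 (SD, n = 4), 47.1 ± 12.1 for Asns, 38.2 ± 5.88 for Atf5, 15.8 ± 5.02 for Psat1, 9.98 ± 0.529 for Sesn2, 9.73 ± 2.07 for Chac1, 9.56 ± 3.23 for Ddit3, 1.68 ± 0.323 for Atf3, 1.56 ± 0.358 for Trib3 and 0.795 ± 0.721 for Phgdh. On these lengths, the differences between Asns and Atf5, among Sesn2, Chac1 and Ddit3, and between Atf3 and Trib3 were smaller than the spread between libraries. The length was that of all exons of a gene joined in the GENCODE annotation, whereas counts were taken over RefSeq exons. The longest coding transcript was shorter for Ddit3 (890 against 1713 bases), Psat1 (2617 against 4254) and Asns (2016 against 2735), for example. The order below Atf4 can therefore change with the length used.

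Pyraclostrobin raised 7 of the 10 genes and lowered none (edgeR quasi-likelihood test, Benjamini-Hochberg adjusted p below 0.01). By this rule 12.1% of the 12324 genes tested were higher and 9.22% were lower. The same 7 genes had every pyraclostrobin library above every vehicle library in CPM, a separation seen upwards in 18.2% of the genes tested. The median log2 fold change over the 10 genes, each given below as pyraclostrobin against vehicle with its standard error from the fit, was 1.61, and over all genes tested it was -0.00213. The largest folds belonged to Atf3, Trib3, Sesn2 and Atf5 among those that passed, and the smallest to Atf4. For this treatment the study describes sequencing in quadruplicate. A figure legend of the study gives fewer than 4 biological replicates, and its supplement gives 4 sample replicates. The n of 4 used here therefore counts libraries. The labels do not say whether the 4 libraries of a group came from separate cultures or embryos, and the p-values measure the spread between these libraries, which may be technical.

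Among the transcription factors, Atf4 read 410, 388, 398 and 378 CPM in the pyraclostrobin libraries 1 to 4 and 323, 251, 250 and 236 CPM in the vehicle libraries 1 to 4. The groups did not overlap, and the means of 394 ± 13.4 and 265 ± 39.4 CPM (SD, n = 4) gave a log2 fold change of 0.57 (SE 0.12, 1.49-fold, adjusted p = 0.00361 by edgeR). Atf3, a factor of the same family that is induced by many stresses, read 22.8, 13.1, 20.6 and 13.03 CPM with pyraclostrobin and 2.50, 3.50, 4.04 and 3.30 CPM with vehicle. Every pyraclostrobin library was well above every vehicle library, although these levels rest on 33 to 58 and 7 to 30 counts. Its log2 fold change was 2.33 (SE 0.27, 5.04-fold, adjusted p = 0.000127 by edgeR).

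Atf5, whose mRNA is also translated under eIF2α phosphorylation and which is linked to the mitochondrial unfolded protein response, read 409, 184, 215 and 189 CPM with pyraclostrobin and 93.4, 73.2, 69.5 and 68.4 CPM with vehicle. Replicate 1 was the highest library of each group, and the lowest pyraclostrobin library was still above the highest vehicle library. The log2 fold change was 1.72 (SE 0.25, 3.29-fold, adjusted p = 0.00044 by edgeR) with all libraries and 1.49 without the 2 libraries numbered 1. Ddit3 encodes CHOP, a factor tied to cell death in prolonged stress, and was the exception among the transcription factors. It read 38.5, 21.8, 17.5 and 22.5 CPM with pyraclostrobin and 24.6, 12.8, 14.6 and 13.5 CPM with vehicle, and the groups overlapped through vehicle replicate 1. Its log2 fold change of 0.63 (SE 0.28) did not pass (adjusted p = 0.108 by edgeR), nor did the value of 0.58 without the libraries numbered 1 (adjusted p = 0.0118).

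All 3 regulators were higher. Trib3, a pseudokinase that binds ATF4 and restrains it, read 27.9, 6.01, 8.75 and 7.50 CPM with pyraclostrobin and 3.21, 4.28, 2.43 and 3.30 CPM with vehicle. The library of pyraclostrobin replicate 1 was far above the other 3 of its group, and the remaining pyraclostrobin libraries held 16 to 23 counts each. The log2 fold change was 1.96 (SE 0.49, adjusted p = 0.00931 by edgeR), and it was 1.16 (adjusted p = 0.0126) without that library. Sesn2 encodes sestrin 2, which restrains mTORC1 signalling when leucine is short, and it separated the groups most clearly. It read 168, 101, 116 and 99.1 CPM with pyraclostrobin and 32.1, 34.6, 35.98 and 36.02 CPM with vehicle, and the log2 fold change was 1.80 (SE 0.18, 3.47-fold, adjusted p = 5.07e-05 by edgeR). Chac1, an enzyme that degrades glutathione, read 54.2, 31.9, 46.8 and 35.9 CPM with pyraclostrobin and 11.1, 16.3, 18.7 and 17.6 CPM with vehicle. Its groups did not overlap either, with a log2 fold change of 1.38 (SE 0.22, 2.60-fold, adjusted p = 0.000669 by edgeR).

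Of the amino acid enzymes, Psat1 passed and Asns and Phgdh did not. Psat1 catalyses the second step of serine synthesis and read 292, 147, 167 and 154 CPM with pyraclostrobin and 99.1, 54.9, 57.3 and 57.3 CPM with vehicle. Each pyraclostrobin library was above all vehicle libraries, replicate 1 was the highest of either group, and the log2 fold change was 1.51 (SE 0.26, 2.85-fold, adjusted p = 0.00113 by edgeR). Phgdh, the first enzyme of the same route, read 18.4, 4.88, 7.99 and 4.34 CPM with pyraclostrobin and 4.64, 1.17, 1.35 and 0.750 CPM with vehicle. Its groups overlapped through vehicle replicate 1, its vehicle libraries held only 3 to 13 counts, and a log2 fold change of 2.34 (SE 0.61) missed the threshold (adjusted p = 0.0119 by edgeR). It was 1.69 (adjusted p = 0.0414) without pyraclostrobin replicate 1 and 3.00 (adjusted p = 0.00119, past the threshold) without vehicle replicate 1. Asns, which makes asparagine from aspartate and glutamine, read 217, 169, 153.4 and 177 CPM with pyraclostrobin and 178, 112, 115 and 109 CPM with vehicle. Vehicle replicate 1 overlapped the treated libraries, and the log2 fold change of 0.48 (SE 0.18) did not pass (adjusted p = 0.0575 by edgeR). Without vehicle replicate 1 it was 0.67 and passed (adjusted p = 0.000832).

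**Figure D1:**
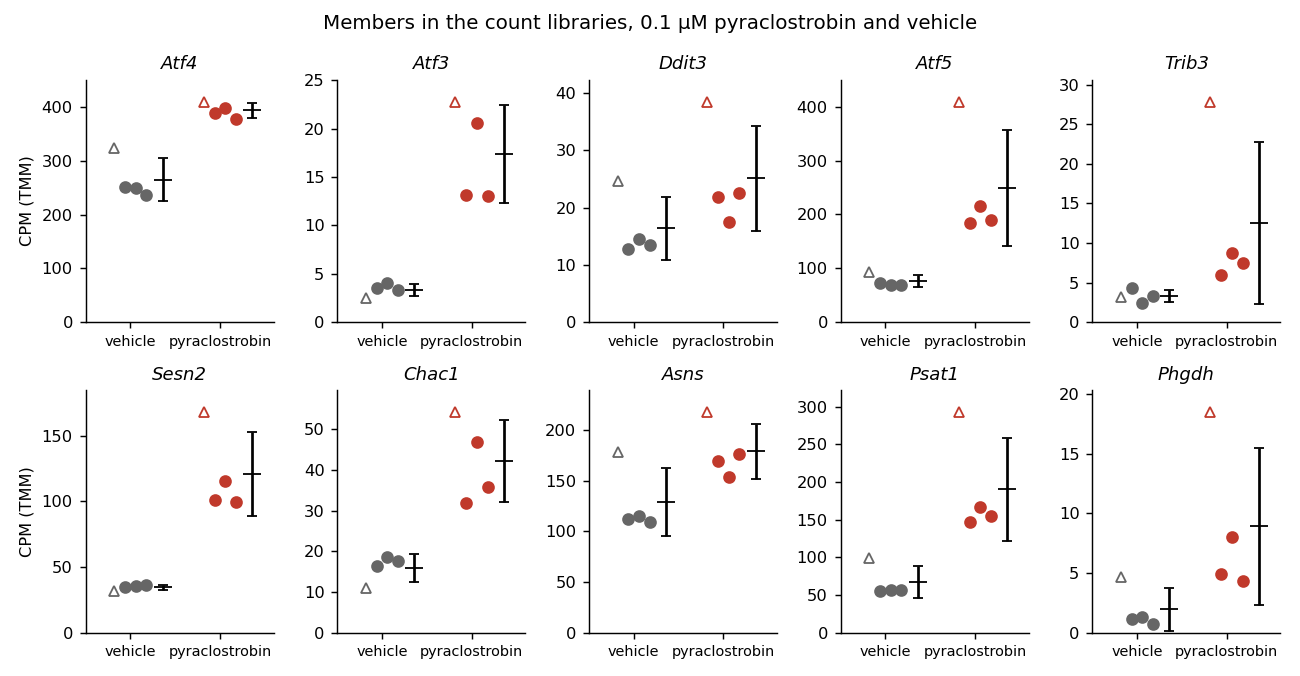
Level of the 10 genes in the 4 libraries with 0.1 μM pyraclostrobin and the 4 with vehicle, in CPM after TMM scaling, 1 panel per gene with its own axis from 0; each mark is 1 library, open triangles are replicate 1 of each group, and black bars show the mean and SD. In 7 genes the groups do not overlap, and in Ddit3, Asns and Phgdh vehicle replicate 1 reaches the treated libraries.

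The column names join each pyraclostrobin library to a vehicle library of the same number. With this pairing as a replicate block, 9 of the 10 genes were higher, against 13.9% of all genes, since Asns (0.49, adjusted p = 0.00623 by edgeR) and Phgdh (2.26, adjusted p = 0.00042) passed as well, and Ddit3 did not (adjusted p = 0.0225). Without the 2 libraries numbered 1, 9 of the 10 genes were higher, against 19.8% of the genes then tested. The 2 genes gained were Asns, with a log2 fold change of 0.57 (adjusted p = 5.4e-06 by edgeR), and Phgdh, with 2.38 (adjusted p = 7.58e-05). Of the 7 calls, those of Atf4 and Trib3 were lost when some single libraries were left out. The Atf4 call was lost without pyraclostrobin replicate 2 or 3 or without vehicle replicate 2, 3 or 4 (adjusted p of 0.0115 to 0.0174, log2 fold change of 0.52 to 0.54), and the Trib3 call without pyraclostrobin replicate 1, 3 or 4 or vehicle replicate 2, 3 or 4 (adjusted p of 0.0111 to 0.0347).

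Other genes of the pathway were counted from fixed lists in the same fit, against 12.1% of all genes upwards and 9.22% downwards. Of 8 tested genes for eIF2α kinases, phosphatase subunits and the mitochondrial relay, 3 were higher and none lower. Eif2ak2, the kinase activated by double-stranded RNA, rose from 3.12 ± 1.07 to 23.2 ± 12.0 CPM (SD, n = 4), and its log2 fold change was 2.92 (SE 0.39, adjusted p = 0.000278 by edgeR). Ppp1r15a (GADD34), the inducible phosphatase subunit that reverses eIF2α phosphorylation, rose by 0.84 (SE 0.13) and its constitutive relative Ppp1r15b by 0.68 (SE 0.13) on the log2 scale. Dele1 was not found by symbol in either table.

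Among 12 other ATF4-responsive stress regulators and secreted factors, 3 were higher and none lower, namely the cytokine Gdf15 (log2 fold change 2.84, SE 0.42), the translation repressor Eif4ebp1 (2.36, SE 0.34) and the cell cycle inhibitor Cdkn1a (1.55, SE 0.20). Among 11 enzymes of serine, one-carbon and proline metabolism, Pck2 (2.54, SE 0.45), Shmt2 (1.32, SE 0.25) and Mthfd2 (1.19, SE 0.15), all of them mitochondrial, were higher and none was lower. Amino acid transporters gave 4 higher of 9, including Slc3a2 (1.18, SE 0.16) and Slc7a5 (0.97, SE 0.17), the subunits of the LAT1 exchanger, and the arginine carrier Slc7a1 (1.09, SE 0.12). Of 13 genes for tRNA synthetases and tRNA export, Eprs alone was higher (0.86, SE 0.13), a share of 7.69% that is below that of all genes. The list medians of these groups were 0.36, 0.57, 1.06, 0.81 and 0.25 in the order given.

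Genes of the other arms of the unfolded protein response gave a different count. None of 17 endoplasmic reticulum chaperones, degradation factors and their regulators passed by edgeR in either direction (median log2 fold change -0.00714). The unadjusted p by edgeR was below 0.05 for 7 of the 17 and for 44.8% of all genes tested. DESeq2 called 1 of the 17 higher and 2 lower, against 1868 and 1630 of 14132 genes. Hspa9 alone of 8 mitochondrial chaperones and proteases was higher (0.99, SE 0.24, median of the list 0.26), a share of 12.5% that is close to the 12.1% of all genes. The difference between these lists and the ATF4 genes was not tested.

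In the screen the values are deviations of normalized log10 RPKM from the median of each gene, converted here to log2, so that they order chemicals within a gene and say nothing of its level. A chemical was taken as the median of its libraries. Against all other chemicals, the 12 inhibitors had higher Atf5, Atf3 and Psat1, and no gene of the 10 was lower (limma, adjusted p below 0.05). Such calls were made upwards for 8.1% and downwards for 14.4% of the 13304 genes. The median difference over the 10 genes was 0.21 and over all genes -0.00265. All 10 differences were above 0, as were those of 6568 of the 13304 genes. Most of the other chemicals were used at 10 μM, so target and dose are partly tied.

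**Figure D2:**
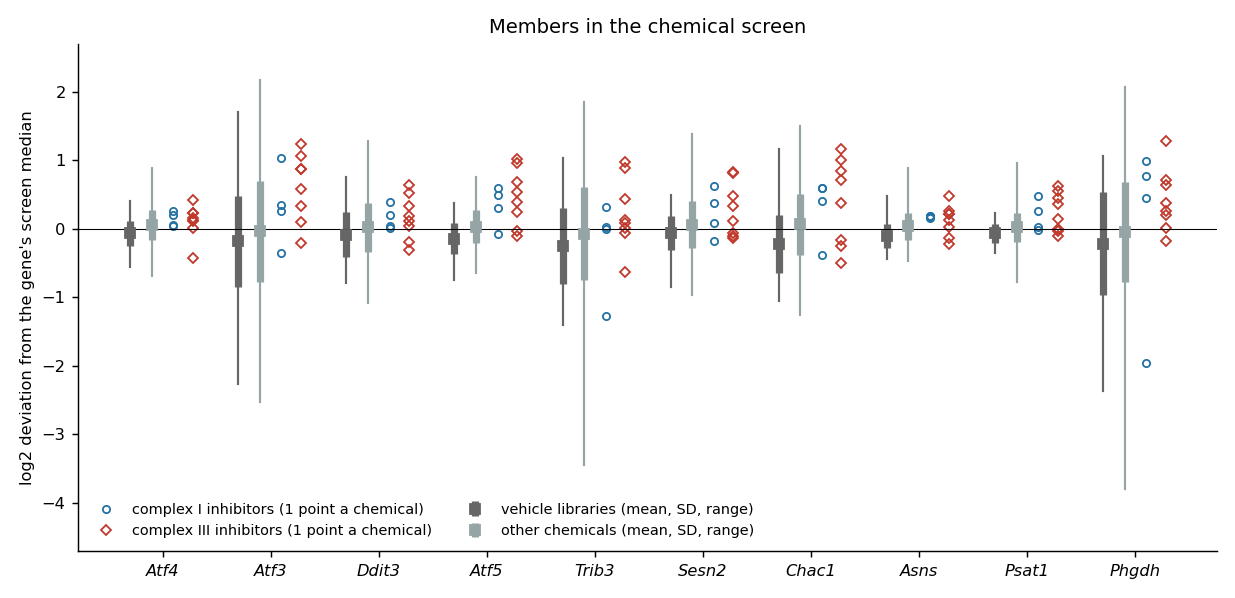
Log2 deviations of the 10 genes in the screen for 49 vehicle libraries and the other chemicals (square, mean; thick bar, SD; thin line, range) and for 4 complex I and 8 complex III inhibitors (1 point per chemical, the median of its libraries). Of the 12 inhibitors, 7 exceed the highest vehicle library for Atf5 and 6 for Psat1.

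Atf5 showed the clearest separation. Its value was -0.75, -0.13 and 0.37 in the vehicle libraries (lowest, median, highest), -0.65, 0.04 and 0.75 in the other chemicals, and -0.10, 0.44 and 1.02 in the inhibitors. Pyraclostrobin (1.02), trifloxystrobin (0.96), famoxadone (0.69), fenpyroximate (0.60), fenamidone (0.54), rotenone (0.50) and fluoxastrobin (0.39) lay above the highest vehicle library. The others did not: pyridaben read 0.30, bifenazate 0.25, azoxystrobin -0.03, tebufenpyrad -0.07 and cyazofamid -0.10. This made 7 of 12 inhibitors and 8.77% of the other chemicals, and at least 6 of 12 inhibitors were above the highest vehicle library for 0.827% of all genes. The mean difference from the other chemicals was 0.39 (SE 0.07, adjusted p = 5.78e-06 by limma), 0.42 ± 0.37 in inhibitors (SD, n = 12) against 0.03 ± 0.24 (SD over the other chemicals).

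Psat1 read -0.35, -0.06 and 0.23 in vehicle libraries, -0.77, 0.01 and 0.97 in the other chemicals and -0.11, 0.21 and 0.63 in the inhibitors (lowest, median, highest). Pyraclostrobin (0.63), famoxadone (0.55), fenpyroximate (0.48), trifloxystrobin (0.45), fenamidone (0.37) and rotenone (0.26) exceeded every vehicle library, 6 of 12 inhibitors against 12.3% of the other chemicals. The difference was 0.21 (SE 0.06, adjusted p = 0.00541 by limma). The 6 were all among the 7 that exceeded vehicle for Atf5. Atf5 and Psat1 passed whichever of the 12 inhibitors was left out.

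Atf3 was far more variable between libraries. Vehicle libraries ran from -2.27 to 1.71, other chemicals from -2.53 to 2.17 and inhibitors from -0.35 for tebufenpyrad to 1.24 for trifloxystrobin, so that no inhibitor was outside the vehicle range. The inhibitors' mean was 0.51 ± 0.52 (SD, n = 12) and that of the other chemicals -0.03 ± 0.73 (SD), a difference of 0.55 (SE 0.21, adjusted p = 0.0486 by limma). The call depended on single chemicals: it remained without azoxystrobin, cyazofamid or tebufenpyrad and was lost without any one of the other 9 (adjusted p of 0.0512 to 0.13).

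The remaining 7 genes did not pass. Their differences were 0.07 (SE 0.07, adjusted p = 0.528 by limma) for Atf4, 0.14 (SE 0.10, p = 0.362) for Ddit3, 0.14 (SE 0.20, p = 0.679) for Trib3, 0.21 (SE 0.10, p = 0.138) for Sesn2, 0.30 (SE 0.13, p = 0.0886) for Chac1, 0.10 (SE 0.06, p = 0.222) for Asns and 0.34 (SE 0.22, p = 0.279) for Phgdh. Sesn2 was above all vehicle libraries in fenpyroximate, pyraclostrobin and trifloxystrobin, 3 of 12 inhibitors against 10.5% of the other chemicals. Chac1 was so in trifloxystrobin, Atf4 in fluoxastrobin and Phgdh in pyraclostrobin, 1 of 12 inhibitors (8.33%) each. Among the other chemicals the shares were 2.11% for Chac1, 7.37% for Atf4 and 3.86% for Phgdh. For Ddit3, Trib3 and Asns no inhibitor exceeded the highest vehicle library, against 1.75%, 2.81% and 2.46% of the other chemicals.

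The choice of inhibitors and of the comparison group changed how many genes passed. With the 9 inhibitors that the study names, most of which it had also grouped by expression in these libraries, Chac1 (0.54), Sesn2 (0.34) and Phgdh (0.65) passed as well, 6 of 10 against 10.7% of all genes upwards. With the 33 other chemicals used below 10 μM as the comparison group, Atf5 alone remained (0.38, adjusted p = 0.00854 by limma), against 5.01% of all genes. With 7 inhibitors of other mitochondrial targets moved into the inhibitor group, Chac1 (0.35, adjusted p = 0.0117 by limma), Asns (0.14, adjusted p = 0.0322), Atf5 (0.28) and Psat1 (0.17) passed and Atf3 did not (0.39, adjusted p = 0.109), 4 of 10 against 4.98% of all genes.

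**Figure D3:**
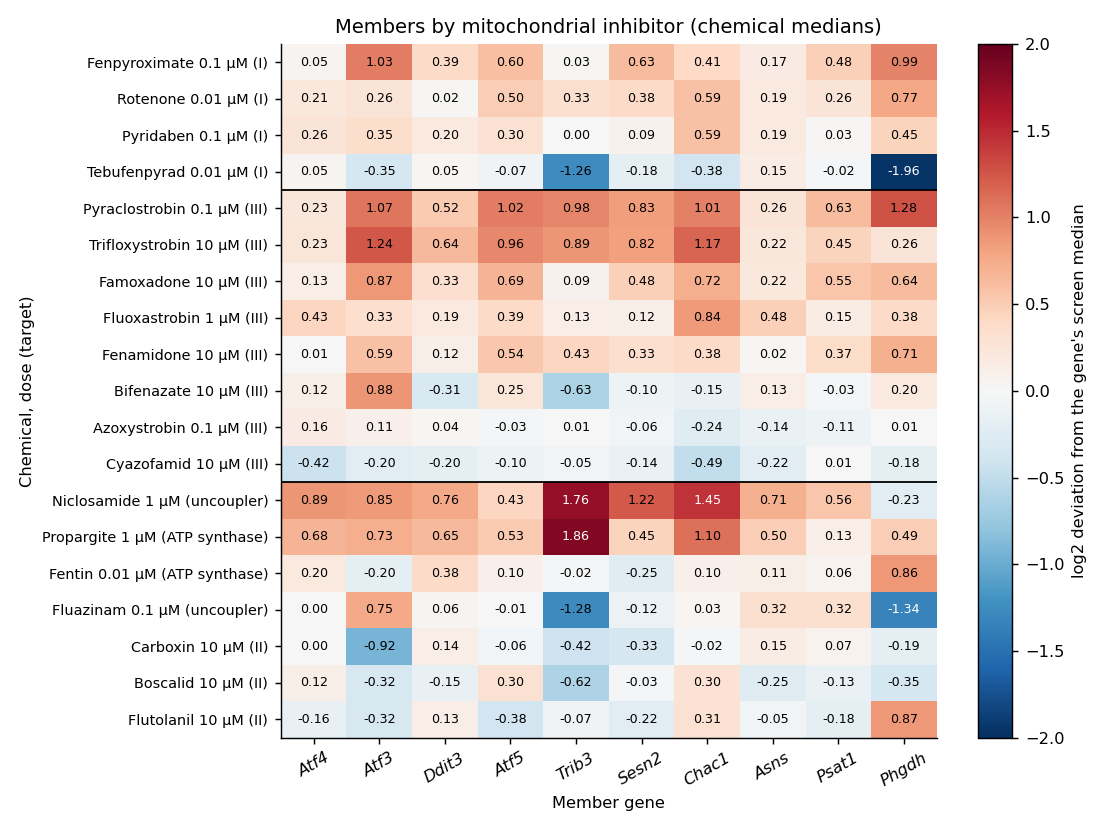
Log2 deviation of the 10 genes for the 12 inhibitors and, in the lowest block, 7 chemicals with other mitochondrial targets (median of a chemical's libraries), with the dose and target of each. Fluoxastrobin, famoxadone, fenamidone, pyraclostrobin, trifloxystrobin, fenpyroximate, pyridaben and rotenone are above 0 in all 10 genes, as is propargite in the lowest block. Azoxystrobin, bifenazate, tebufenpyrad and cyazofamid are mixed. Some chemicals not shown are also above 0 in all 10 genes, and their share was not counted.

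Within the class, 8 of the 12 inhibitors were above 0 for all 10 genes, and the other 4 for 5 (azoxystrobin, bifenazate), 3 (tebufenpyrad) and 1 (cyazofamid). This was not particular to the class. Chemicals outside the class that were also above 0 for all 10 included propargite, diethylhexyl pthalate, emamectin benzoate, cyfluthrin, bifenthrin, etoxazole and butachlor. The share among the other chemicals was not counted. Vehicle medians were below 0 in every gene, from -0.227 for Phgdh to -0.0381 for Atf4, so 0 is not the vehicle level. The highest Chac1 values were 1.17 for trifloxystrobin, 1.01 for pyraclostrobin and 0.84 for fluoxastrobin, and the lowest were -0.49 for cyazofamid and -0.38 for tebufenpyrad. Fluoxastrobin had the highest Atf4 (0.43) and Asns (0.48) of the class and a Sesn2 value of only 0.12, whereas pyraclostrobin and trifloxystrobin had Sesn2 at 0.83 and 0.82 with Atf4 at 0.23. Repeat libraries were close for Atf5, with differences of 0.01 for rotenone, 0.08 for azoxystrobin, 0.11 for fenamidone and 0.16 for famoxadone. They were far apart for Trib3, whose 2 azoxystrobin libraries read 0.66 and -0.65, so a single library of Trib3 carries little precision.

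Markers of cell types differed between the inhibitors as well. Scaled to SD 1 over chemicals and averaged over their list, neuronal markers lay between -4.37 (trifloxystrobin) and 0.603 (cyazofamid) in the inhibitors and between -0.744 and 1.52 in vehicle libraries. The 4 inhibitors with mixed ATF4 genes all had neuronal markers above 0, from 0.189 to 0.603, and fluoxastrobin was at -0.0388 with all 10 genes above 0. Fibroblast and mural markers reached 3.19 in fenpyroximate, above the highest vehicle library at 0.781. In the test against other chemicals all 7 neuronal markers were lower and all 6 fibroblast and mural markers higher. The astrocyte list had 4 of 6 higher, the oligodendrocyte list 1 of 4, and the microglial list and the dividing-cell list none of 3 each by limma. At an unadjusted p below 0.05 these last 2 lists had none and 1, against 32.2% of all genes. Over the 297 chemicals, the marker mean and the mean of the 10 genes had a Spearman correlation of -0.33 for neurons. It was 0.20 for fibroblasts and mural cells, 0.052 for the oligodendrocyte lineage, -0.018 for microglia, -0.09 for dividing cells and -0.11 for astrocytes. The part of these markers in the differences of the ATF4 genes was not tested.

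Both target complexes were then compared with the other chemicals in one fit. None of the 10 genes passed for the 4 complex I inhibitors, where 0.872% of all genes were higher by limma. Of the 10, 1 had an unadjusted p below 0.05, Atf5 (0.30, SE 0.13), as had 15.9% of all genes. Atf5 passed without tebufenpyrad (0.43, adjusted p = 0.0366). For the 8 complex III inhibitors Atf5 (0.43, SE 0.09, adjusted p = 6.93e-05 by limma) and Psat1 (0.23, SE 0.07, adjusted p = 0.0183) passed, against 4.89% of all genes upwards. The Psat1 call was lost without famoxadone, fenamidone, pyraclostrobin or trifloxystrobin (adjusted p up to 0.174), and Atf3 (0.76) and Chac1 (0.46) passed when cyazofamid was left out.

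The difference between the complexes themselves was not detectable. Between complex I and complex III inhibitors 0 of 13304 genes passed by limma, 146 genes and none of the 10 had an unadjusted p below 0.05. For Atf5 the difference of complex I minus complex III was -0.13 (95% interval -0.43 to 0.17) and for Psat1 it was -0.07 (-0.32 to 0.18). The widest interval was that of Phgdh, -1.23 to 0.53, and these intervals do not show that the 2 classes act alike.

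**Figure D4:**
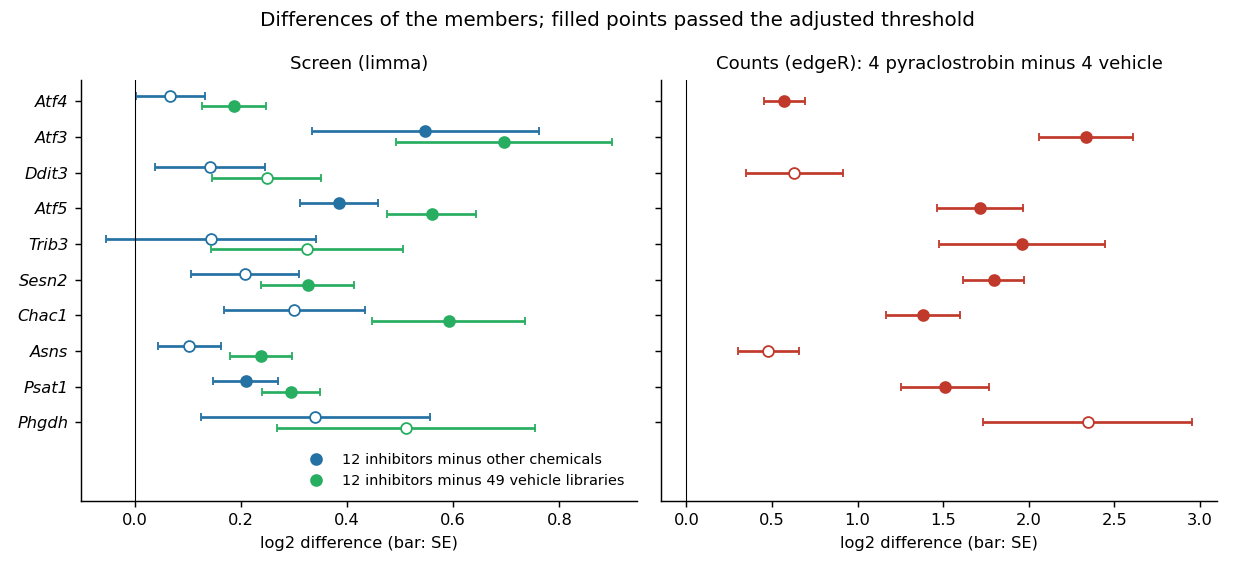
Log2 differences of the 10 genes with their standard errors in the comparisons of inhibitors with other chemicals, of inhibitors with vehicle, and of pyraclostrobin with vehicle in the counts; filled points passed the threshold of their comparison, and the panels have different scales. Atf3, Atf5 and Psat1 pass in all 3, and the differences in the counts exceed those in the screen in every gene.

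Pairs of inhibitors of the same complex were compared at a matched dose, 6 pairs with p-values adjusted over all genes and pairs. The spread came mainly from vehicle and topotecan libraries, and a chemical with 1 library was assumed to vary like them. Pyraclostrobin and azoxystrobin, strobilurin-type fungicides used here at 0.1 μM, differed in Atf5 by 1.05 (95% interval 0.55 to 1.55, adjusted p = 0.0202 by limma) and in Psat1 by 0.74 (0.36 to 1.116, adjusted p = 0.0417), both higher with pyraclostrobin. In this pair 0.323% of all genes were higher. Pyraclostrobin had 1 library here, which is replicate 1 of the count table. There it was the highest of its group for Atf5 (409 CPM against 184 to 215) and Psat1 (292 CPM against 147 to 167), so both differences rest on a library that stood apart and have no replicate check. Chac1 was 1.25 higher and its interval of 0.28 to 2.23 lay above 0, but it did not pass (adjusted p = 0.464 by limma). For Atf4 the pair differed by 0.07, with an interval of -0.40 to 0.53.

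No gene of the 10 passed by limma in the other 5 pairs, in which 0.0977% (famoxadone minus fenamidone and rotenone minus tebufenpyrad), 0.0301% (fenpyroximate minus pyridaben) and 0.00752% (trifloxystrobin minus famoxadone or fenamidone) of all genes were higher. In rotenone minus tebufenpyrad the unadjusted p by limma was below 0.05 for 3 of the 10 (Atf5, Trib3 and Phgdh) and for 8.34% of all genes. In fenpyroximate minus pyridaben it was so for Psat1 and for 4.67% of all genes. In the other 3 pairs it was so for none of the 10 and for 1.53% to 4.11% of all genes. Rotenone exceeded tebufenpyrad at 0.01 μM by 2.73 in Phgdh (0.91 to 4.55, adjusted p = 0.258 by limma) and by 0.57 in Atf5 (0.07 to 1.07, adjusted p = 0.62). Fenpyroximate and pyridaben at 0.1 μM differed in Atf5 by 0.29 (-0.28 to 0.87). At 10 μM, Atf5 differed by 0.15 (-0.26 to 0.55) between famoxadone and fenamidone, 0.28 (-0.22 to 0.77) between trifloxystrobin and famoxadone and 0.42 (-0.07 to 0.92) between trifloxystrobin and fenamidone. These intervals allow differences as large as the mean effect of the class.

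Compared with the 49 vehicle libraries in place of other chemicals, 7 of the 10 genes were higher in the inhibitors, against 9.31% of all genes upwards. These were Atf5 (0.56, SE 0.08, adjusted p = 1.59e-06 by limma), Psat1 (0.29, SE 0.06, p = 4.6e-05), Asns (0.24, SE 0.06, p = 0.00124), Chac1 (0.59, SE 0.14, p = 0.00131), Sesn2 (0.33, SE 0.09, p = 0.00368), Atf3 (0.70, SE 0.20, p = 0.00773) and Atf4 (0.19, SE 0.06, p = 0.0167). Ddit3 (0.25, SE 0.10), Trib3 (0.32, SE 0.18) and Phgdh (0.51, SE 0.24) did not pass. The same 7 passed whichever inhibitor was left out. The other chemicals lay above the vehicle libraries in the median of every gene, with Chac1 at 0.05 against -0.22, and the inhibitors are those of the preceding comparison.

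Topotecan at 0.3 μM, an inhibitor of topoisomerase I with 32 libraries, served as a reference with replication. With it Atf4 was lower, by -0.33 (SE 0.04, adjusted p = 6.57e-10 by limma) and so was Chac1, by -0.43 (SE 0.09, adjusted p = 6.22e-05), and no gene of the 10 passed upwards, nor did any other at an unadjusted p below 0.05. Downward calls made up 20.9% and upward calls 24.8% of all genes, and 51.5% of all genes had an unadjusted p below 0.05. Chac1 read -1.30, -0.70 and 0.16 with topotecan and -1.05, -0.22 and 1.16 with vehicle (lowest, median, highest), and Atf4 read -0.72, -0.42 and 0.27 against -0.56, -0.04 and 0.40. Both genes overlapped widely between single libraries. This comparison shares its vehicle libraries with the one of the inhibitors.

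The 5 highest chemicals for the mean of the ATF4 genes were not inhibitors of complex I or III. When each gene was scaled to SD 1 over the 297 chemicals and the 10 were averaged, the highest values were those of niclosamide (2.31), an uncoupler of mitochondrial respiration, diethylhexyl pthalate (2.25), emamectin benzoate (2.24), metiram-zinc (2.16) and the pyrethroid cyfluthrin (1.90). Pyraclostrobin was sixth (1.89) and trifloxystrobin eighth (1.70), with propargite (1.71), an inhibitor of ATP synthase, between them. The 50 highest chemicals held 8 of the 12 inhibitors of complex I or III (66.7%) and 42 of the other chemicals (14.7% of them). The median was 0.785 for the inhibitors and -0.102 for the others. Bifenazate (-0.00829), azoxystrobin (-0.21), tebufenpyrad (-0.674) and cyazofamid (-0.711) lay at ranks 125, 176, 264 and 273. Vehicle libraries ran from -1.50 to 1.25 with a median of -0.52. Each of the 5 leading chemicals had 1 library, so their order has no replicate check.

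**Figure D5:**
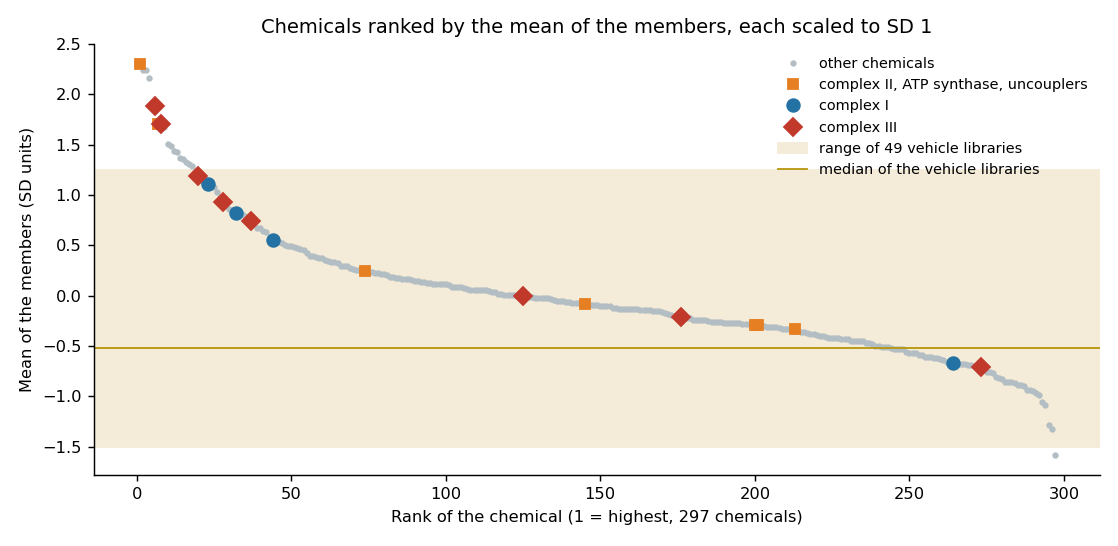
Mean of the 10 genes, each scaled to SD 1, for the 297 chemicals in rank order, with the inhibitors of complex I and III, the inhibitors of other mitochondrial targets marked and the range and median of 49 vehicle libraries shaded and drawn. The inhibitors spread from rank 6 (pyraclostrobin) to rank 273 (cyazofamid), and niclosamide is first.

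The values of single genes in these chemicals are given as a description, from 1 library each. Niclosamide at 1 μM had the highest Atf4 of all 297 chemicals (0.89), with Trib3 at 1.76, Chac1 at 1.45 and Sesn2 at 1.22, and exceeded all vehicle libraries in 7 of the 10 genes. Its Atf5 (0.43) was below those of pyraclostrobin and trifloxystrobin. Emamectin benzoate at 1 μM combined Psat1 at 0.97 and Atf3 at 1.74 with Atf4 at only 0.22. Metiram-zinc at 10 μM led in Asns (0.89) and had Trib3 at -0.60. Propargite at 1 μM had the highest Trib3 (1.86). Neuronal markers, on the scale used above, were below the lowest vehicle library (-0.744) in emamectin benzoate (-2.49), propargite (-1.04) and diethylhexyl pthalate (-0.938), and within the vehicle range in metiram-zinc (-0.602), cyfluthrin (-0.349) and niclosamide (-0.334). Fibroblast and mural markers were above the highest vehicle library (0.781) in diethylhexyl pthalate (1.40). The part of these markers in the values of the ATF4 genes was not tested. The other inhibitors of complex II or ATP synthase and the other uncoupler, which were boscalid, carboxin, flutolanil, fentin and fluazinam, lay between -0.333 and 0.247 on the mean scale.

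Over the 297 chemicals all 45 pairs of the 10 genes had a Spearman correlation above 0, between 0.0749 and 0.598 (median 0.32). The highest belonged to Atf4 with Chac1 (0.60) and Atf4 with Asns (0.55), and Phgdh was the least alike, with 0.0749 to 0.178. Within the 49 vehicle libraries the median was 0.208. The points share the batch removal and quantile normalization of one table, and the correlations are given as a description.

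The 8 genes outside the list whose values were most like the mean of the 10, by Spearman correlation over 297 chemicals, were Slc7a5 (0.70), Slc3a2 (0.68), Slc7a1 (0.61), Ppp1r15a (0.57), Vgf (0.55), Clic4 (0.54), Hsd17b12 (0.53) and Trim66 (0.53). The first 4 had been placed on the lists of amino acid transporters and eIF2α regulators. In the inhibitors against other chemicals Clic4 was 0.33 higher (adjusted p = 0.000495 by limma), Slc3a2 0.17 (p = 0.0166) and Slc7a5 0.15 (p = 0.0452), and the other 5 did not pass.

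Fixed lists of further pathway genes gave modest counts in the same comparison of inhibitors with other chemicals, set against 8.1% of all genes upwards and 14.4% downwards. Amino acid transporters had 3 of 9 higher, Slc7a3 (0.51, SE 0.16), Slc3a2 and Slc7a5. Enzymes of serine, one-carbon and proline metabolism had 3 of 12 higher, Cth (0.85, SE 0.26), a cysteine-forming enzyme, the mitochondrial PEP carboxykinase Pck2 (0.52, SE 0.17) and the alanine aminotransferase Gpt2 (0.20, SE 0.06). Of the eIF2α kinases and phosphatase subunits 1 of 8 was higher (Ppp1r15b, 0.13, SE 0.04), and of the tRNA synthetases none of 13. No tRNA synthetase had an unadjusted p below 0.05 by limma either, against 32.2% of all genes.

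Stress regulators and secreted factors moved both ways, with Cdkn1a higher (0.19, SE 0.05) and Ddit4 (-0.26, SE 0.09), Vldlr (-0.25, SE 0.05) and Vegfa (-0.24, SE 0.08) lower among 12. Ddit4 restrains mTORC1, Vldlr is a lipoprotein and reelin receptor and Vegfa an angiogenic growth factor, and each is also controlled by other pathways. The list of endoplasmic reticulum chaperones, degradation factors and their regulators had 2 higher (Atf6, 0.16, and Dnajc3, 0.13) and 2 lower (Xbp1, -0.18, and Syvn1, -0.17) of 17. Hspa9 (0.17, SE 0.04) was higher among 8 mitochondrial chaperones and proteases. Median differences of the lists lay between 0.000106 for the tRNA synthetases and 0.18 for the serine, one-carbon and proline enzymes.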

How the data were processed

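The libraries were made from polyadenylated RNA of mouse cortical cultures, and each was assigned to its chemical and dose by its sample label. The authors used TagDust to filter the reads and TopHat for alignment to mm9, removed ribosomal reads and counted reads over RefSeq exons joined by gene symbol. The counts for pyraclostrobin and vehicle were deposited at that stage. Their libraries are numbered here by the part of the column name that a pyraclostrobin and a vehicle library share. The methods speak of matched vehicle controls without saying what a match shares. Deviations of equally numbered libraries from their group means correlated at 0.376, 0.102, -0.0287 and 0.161. Pyraclostrobin replicate 1 correlated at -0.221, -0.253 and -0.308 with vehicle replicates 2, 3 and 4. Unequally numbered libraries among replicates 2 to 4 correlated at 0.0103 to 0.218. The values thus set apart the pair numbered 1 only, and for the other replicates the pairing rests on the names and methods. For the screen the authors deposited log10 RPKM values (genes over a length minimum and with reads in nearly all samples), normalized by quantiles, centred on each gene's median and freed of culture and sequencing batch by a mixed model. Batches therefore cannot be examined, the labels name none, depth in the screen is unknown, and no filter on level or pseudocount applies.

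Counts were tested in edgeR 4.0.16 (R 4.3.3) by the quasi-likelihood test with TMM scaling, keeping genes that reached 10 counts in 4 or more libraries, with Benjamini-Hochberg adjustment over 12324 genes and a threshold of 0.01. Screen values were converted to log2 and tested in limma 3.58.1 without trend, with adjustment over 13304 genes and a threshold of 0.05, two-sided. DESeq2 1.42.0 and permutation over chemicals (100000 resamples) were alternatives. Near-identical copies were sought with blastn 2.17.0. The tests were tested on simulated data.

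The members and gene lists were chosen with earlier results of these data known. The genes named were all 10 members, up to 3 rises and 3 falls per list among those past the threshold, the 8 genes most like the members and the 5 chemicals with the highest mean. A further table, of cultures given sulforaphane or vehicle before fenamidone, had 6 columns of identical name that could not be assigned, and that planned comparison was not run.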

Additional observations from a re-analysis of the deposited data

Results flagged for a closer look

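Each of the 10 genes was examined for 1 value far from the rest of its group, by the gap to the nearest value as a share of the group's range, in both groups of the count table and in the complex I and complex III inhibitors of the screen. Of these 40 groups 8 met Dixon's criterion, all in the count table and all through replicate 1. Chance would mark about 1 group in 20 if the groups were independent. The count-table groups share the same 8 libraries, so 1 library that stands apart can mark many genes at once. With pyraclostrobin, replicate 1 was far above the others for Atf5 (409 CPM against 184 to 215), Trib3 (27.9 against 6.01 to 8.75) and Psat1 (292 against 147 to 167). With vehicle, replicate 1 was far above the others for Atf4 (323 CPM against 236 to 251), Ddit3 (24.6 against 12.8 to 14.6), Asns (178 against 109 to 115), Psat1 (99.1 against 54.9 to 57.3) and Phgdh (4.64 against 0.750 to 1.35). These 2 libraries also had the highest astrocyte marker sums of their groups, 3134 and 957 CPM, whose part in these values was not tested.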

How the results depend on the processing

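Over 736 alternative results for the 10 genes' differences, 672 kept direction and side of the threshold, 30 lost a call, 29 gained one and 5 changed sign. These include changes of the threshold alone, and the permutation over chemicals was judged by its unadjusted p. For inhibitors against other chemicals, 2992 genes were called, 1994 at an adjusted p of 0.01, 1737 against other chemicals below 10 μM and 564 when 5121 variable genes were tested. Of the 10 genes, 3 were called, 6 with the 9 inhibitors that the study names, 1 (Atf5) against chemicals below 10 μM, where Trib3 turned to -0.10, and 0 among variable genes, of which 6 of the 10 were tested and Atf5 and Psat1 were not. Leaving out 1 inhibitor gave 2197 to 3269 genes and 2 to 4 of the 10.

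For complex I, 758 genes were called and 411 at 0.01. Leaving out 1 inhibitor gave 25 (without fenpyroximate) to 1140 (without tebufenpyrad) genes and 0 to 1 of the 10. Trib3 ran from -0.34 to 0.19, above 0 without tebufenpyrad, and Phgdh from -0.20 to 0.78, turning to -0.20, -0.02 and -0.13 without fenpyroximate, pyridaben and rotenone. For complex III, 2087 genes and 2 of the 10 were called, 1309 and 1 at 0.01, and 1093 (without pyraclostrobin) to 2432 (without azoxystrobin) genes and 1 to 4 of the 10 with 1 inhibitor left out.

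For pyraclostrobin, 2631 genes and 7 of the 10 were called. At 0.05 there were 4301 genes, and without 1 library 1682 (without vehicle replicate 3) to 4052 (without vehicle replicate 1) genes and 5 to 9 of the 10. Without both libraries numbered 1 there were 4773 genes, an alternative chosen after seeing the data, as were leaving out 7 inhibitors of other mitochondrial targets from the comparison group (3014 genes) and 1 inhibitor in turn against vehicle (2582 to 3571 genes, 7 to 8 of the 10). Upward and downward calls were 1495 and 1136, and 1505 and 1495 without a filter on low counts. DESeq2 called 3498 genes of 14132 and 8 of the 10, adding Phgdh. With a replicate block there were 3135 genes and 9 of the 10, Asns and Phgdh added. The block changed the call of no other gene of the 10. The planned comparison of sulforaphane pretreatment was not run because its columns could not be assigned. Genes under a few CPM, such as Phgdh, Trib3 and Atf3 in vehicle libraries, are limited by depth, 1 CPM being as little as 2.41 counts. The causes of these changes were not tested.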
